A study of Mus musculus with 12 samples.

Results

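The comparison set testes that carried any virus acting on lncRNA8276, whether made to raise or to lower this long noncoding RNA, against testes of both control groups. It used all 12 RNA-seq libraries of the series, 6 from the manipulated groups and 6 from the controls, each of the 4 groups weighted equally. It asked which genes differed between the mean of the manipulated groups and the mean of the controls. Such a difference does not require that both manipulated groups move a gene, so a same direction in both was also asked separately. Total RNA came from testes of F0 mice of a strain given as IRC mouse. In the 3 OV libraries the testis had received a virus that overexpressed lncRNA8276, and in the 3 KD libraries a virus that inhibited it. The control groups 5NC and 3NC have 3 libraries each. The labels do not spell out these 2 names, and they were treated here as control viruses. Which control belongs to which virus is not stated. OV was set against 5NC and KD against 3NC, after the order in which the design names the groups, and the crossed pairs are given too. Neither the viral backbone, the dose, the age nor the time after transfection was given in the labels, and nothing says whether the 3 libraries of a group are 3 animals. The p-values therefore reflect only how these libraries vary, which may be technical. No gene symbol carries the number of the lncRNA. Its own level was not analysed here, and the manipulations were not checked against it.

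A long noncoding RNA is a transcript that is not translated and can act on transcription, splicing or RNA stability, or serve as a source of small RNAs. In the testis, germ cells develop inside tubules lined by Sertoli cells, and Leydig cells between the tubules make testosterone from cholesterol. Cholesterol comes from uptake of lipoproteins and from synthesis, and the genes of both routes are driven by the transcription factor SREBP2, which INSIG proteins hold back in the endoplasmic reticulum when sterols are plentiful.

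The libraries held 15448442 to 16355720 estimated reads, and 16320 of 20718 genes passed the filter on low counts. Transcripts of spermatids and spermatocytes were abundant in every library, with protamine gene Prm2 at 4760 to 6729 CPM (counts scaled by library size) and the synaptonemal complex gene Sycp3 at 174 to 230.2 CPM. Star, which brings cholesterol into the mitochondria of Leydig cells, lay at 84.9 to 389 CPM, Acta2 of myoid cells at 24.5 to 44.2 CPM and Amh of immature Sertoli cells at 0.548 to 2.32 CPM. Along the first principal component (19.1% of the variance), OV replicates 1 and 3 and 3NC replicate 2 stood apart, with scores of 30.2, 30.3 and 29.0. OV replicate 2 had a score of 10.3, and the other 8 libraries lay between -16.1 and -5.16.

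Manipulation in either direction, set against both controls, gave 5 called genes of 16320 tested, 4 of them lower and 1 higher (0.0306% of the genes tested, edgeR quasi-likelihood test, Benjamini-Hochberg adjusted p under 0.05). The genes that fell were Insig1, Sema4b, Medag and Trib1, and the gene that rose was Cyp3a41a. At an unadjusted p under 0.05 there were 633 genes, 269 higher (1.65%) and 364 lower (2.23%), together 3.88% of those tested. This is a smaller share than a threshold of 0.05 passes on average where no gene differs. With replicate numbers as blocks within OV and 5NC and within KD and 3NC, 8 genes were called, among them the 5.

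Insig1 encodes an anchor of the endoplasmic reticulum that retains SREBP and is itself a target of SREBP. It lies on chromosome 5, 28071412 to 28078662 (GRCm38, RefSeq annotation). Insig1 had 17.7, 18.1 and 21.2 CPM in OV and 22.2, 26.2 and 24.0 CPM in KD testes, against 27.3, 22.1 and 21.9 CPM in 5NC and 51.5, 63.6 and 47.3 CPM in 3NC testes. The 3NC libraries were all above the other 9, the OV libraries were all below both controls, and KD overlapped 5NC. The log2 fold change over the 4 groups was -0.75 ± 0.09 (SE, adjusted p = 0.0171, edgeR).

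Sema4b encodes a membrane semaphorin, a class of guidance molecules, and lies on chromosome 7, 80186870 to 80226646. Sema4b had 12.8, 13.2 and 10.5 CPM in OV and 9.11, 9.65 and 8.61 CPM in KD testes, against 16.5, 10.8 and 11.9 CPM in 5NC and 27.8, 26.7 and 22.6 CPM in 3NC testes. Among the 4 genes that fell, it was the one with both manipulated means below both control means, although OV overlapped 5NC. Its log2 fold change was -0.80 ± 0.11 (adjusted p = 0.0225, edgeR).

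Medag, linked to the making of fat cells in mice, lies on chromosome 5, 149367641 to 149431723. It had 2.18, 2.01 and 1.31 CPM in OV and 1.34, 1.62 and 1.66 CPM in KD testes, against 1.47, 0.920 and 1.79 CPM in 5NC and 12.1, 14.2 and 9.71 CPM in 3NC testes. Trib1, a pseudokinase that takes part in the breakdown of C/EBP transcription factors, lies on chromosome 15, 59648654 to 59657099. It had 4.17, 5.01 and 3.25 CPM in OV and 4.84, 4.73 and 4.72 CPM in KD testes, against 4.40, 4.67 and 3.84 CPM in 5NC and 13.7, 14.9 and 12.4 CPM in 3NC testes. For both genes OV, KD and 5NC overlapped and 3NC alone stood above them. The log2 fold changes were -1.29 ± 0.19 for Medag (adjusted p = 0.0269, edgeR) and -0.79 ± 0.12 for Trib1 (adjusted p = 0.0277, edgeR).

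Cyp3a41a encodes a cytochrome P450 of the CYP3A family, which oxidises steroids and drugs, and lies on chromosome 5, 145694049 to 145720136. Its mean was under 1 CPM, so it falls outside the rule for named genes and is given here because it was one of the 5 calls. The 3 libraries of a group together held 69 reads in OV and 30 in KD, against 22 in 5NC and 0 in 3NC. Against a floor of 3 reads over the 3NC group, OV was at least 22.9-fold higher and KD at least 10.1-fold higher, and 5NC itself was at least 7.48-fold higher. The KD libraries (0.765, 0.648 and 0.510 CPM) overlapped those of 5NC (0.550, 0.197 and 0.641 CPM). Cyp3a genes have near-identical copies, and how reads shared among copies were counted is not given in the sources used here, so this gene is uncertain.

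**Figure D1:**
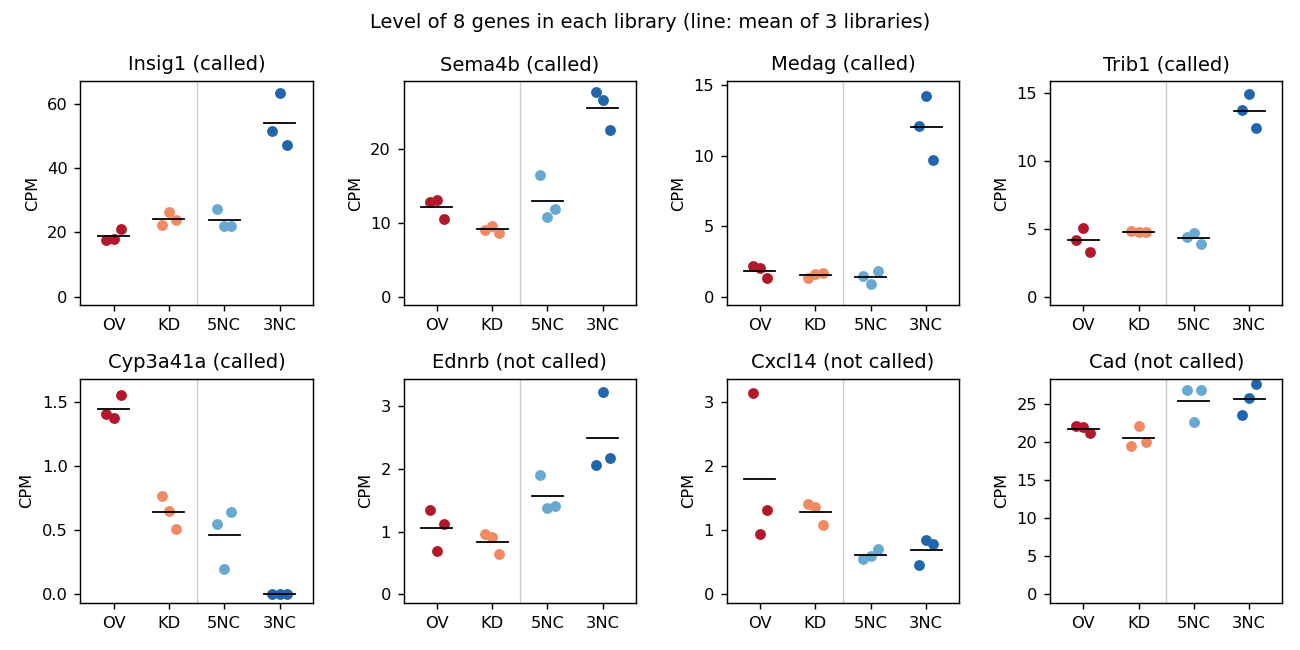
CPM in each of the 12 libraries for the 5 called genes and for 3 genes that were not called but whose 6 manipulated and 6 control libraries did not overlap (points: libraries; line: mean of 3; the grey line parts manipulated from control groups). For Insig1, Sema4b, Medag and Trib1 the 3NC libraries lie above all the others, and for Cyp3a41a they lie at 0, while for Ednrb, Cxcl14 and Cad the 6 manipulated libraries lie on one side of the 6 control libraries.

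For all 5 called genes, 3NC was the group farthest from the mean of the other 3. All 5 were also called in KD against 3NC, where 29 genes were called (0.178%, 4 higher and 25 lower), and in OV against 3NC, where 52 were called (0.319%, 7 higher and 45 lower). None of the 5 was among the 8 genes called in KD against 5NC (0.049%), and OV against 5NC gave 0 calls (0.0%) at an adjusted p under 0.05 with edgeR, 1697 genes at an unadjusted p under 0.05 (10.4%), and 50 calls with DESeq2. With replicate blocks OV against 5NC gave 26 calls. With 3NC left out, so that OV and KD were set against 5NC alone, 1 gene was called and it was not one of the 5, and Medag (0.26) and Trib1 (0.046) had positive log2 fold changes. With 5NC left out, 61 genes were called, 58 of them lower, and these included the 5. Among the 364 genes lower at an unadjusted p under 0.05, 3NC was the farthest group in 37.1%, beside 20.8% of all genes with a negative fold change. Among the 269 higher genes it was the farthest in 22.3%, beside 22.7% of all genes with a positive fold change.

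The called set also depended on single libraries. No gene was called without KD replicate 1, without KD replicate 3 or without 3NC replicate 1, and 1 gene, Insig1, was called without 3NC replicate 2. There were 8 calls without OV replicate 1 and 8 without OV replicate 3, 2 without KD replicate 2 or without 5NC replicate 1, and 3 without 5NC replicate 3. Without the 3 libraries that stood apart on the first principal component, 3 genes were called, of which Insig1 was one of the 5. When the 12 libraries were fitted as 2 groups of 6, so that differences between OV and KD and between the controls counted as spread, edgeR called 0 genes and 505 had an unadjusted p under 0.05.

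The same-direction question can be asked gene by gene, by requiring that OV against 5NC and KD against 3NC, which share no library, each move a gene the same way. Taking the larger of both p-values per gene, 0 genes were called (0.0%, edgeR and Benjamini-Hochberg), and DESeq2 likewise gave 0. At an unadjusted p under 0.05 in both, 23 genes had the same direction, 10 higher and 13 lower (0.141% of the genes tested), while 149 had opposite directions, 85 higher in OV and lower in KD and 64 the reverse. Across the 16320 genes, 32.1% had fold changes of the same sign, and the log2 fold changes of the 2 comparisons had a Pearson r of -0.26 and a Spearman rho of -0.37, given as a description across genes of one shared fit. With the controls crossed, 25 genes had the same direction at an unadjusted p under 0.05 (0.153%, 8 higher and 17 lower), 0 were called, and 44.3% of genes had the same sign. How many genes would pass both unadjusted thresholds with the same sign by chance was not tested. The effect of OV against 5NC minus that of KD against 3NC was itself called for 10 genes (0.0613%, edgeR), 9 of them positive. The OV and KD fold changes thus had opposite signs for more genes than they had the same sign, under either pairing of the controls. The libraries that stood apart on the first principal component belong to OV and 3NC. High values in them would raise OV against 5NC and lower KD against 3NC. How the share of genes with the same sign changes without those libraries was not tested.

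**Figure D2:**
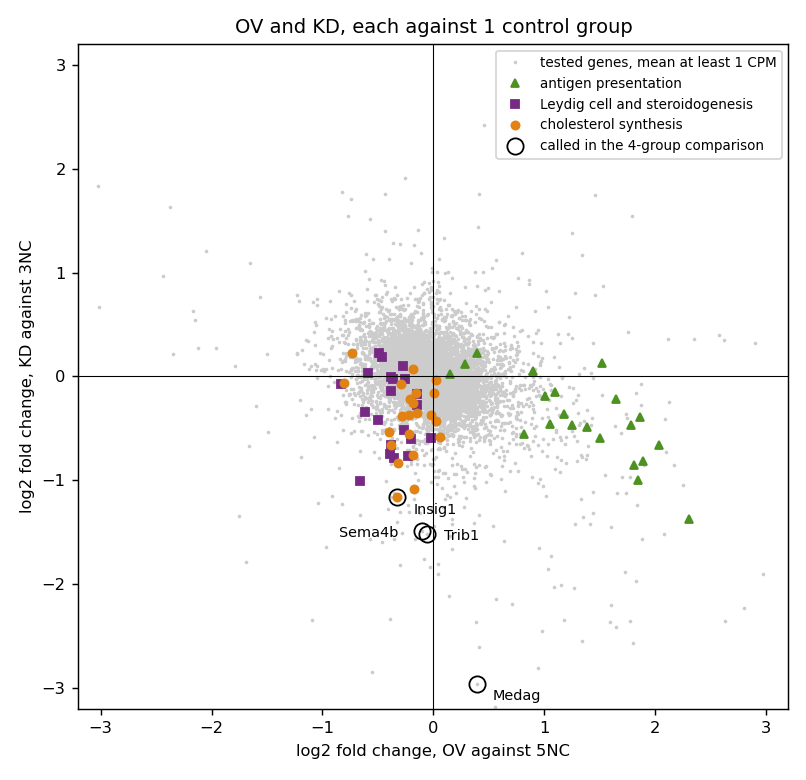
Log2 fold change in KD against 3NC (vertical) and in OV against 5NC (horizontal) for tested genes with a mean of at least 1 CPM; squares mark the Leydig cell list, filled circles the cholesterol synthesis list, triangles the antigen presentation list and open rings the called genes (Cyp3a41a, under 1 CPM, and genes beyond the axes, among them Akr1b7, are not drawn). Most cholesterol and Leydig cell genes lie in the lower left, where both changes are negative, antigen presentation genes lie mostly in the lower right, and Medag, Trib1 and Sema4b lie far below 0 on the vertical axis and near 0 on the horizontal one.

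Among the 23 genes, 5 had an unadjusted p under 0.05 and the same sign in all 4 pairs of a manipulated and a control group, and all 5 were lower. None of them was called. They are Acyp2, an acylphosphatase, Dock5, an activator of the small GTPase Rac, Lynx1, a modulator of nicotinic acetylcholine receptors, Cad, the enzyme that starts pyrimidine synthesis, and Pja1, a ubiquitin ligase. Of these, Acyp2 comes under the rule for named genes, and the other 4 were chosen after their values were seen. Acyp2 had 5.13, 7.21 and 7.30 CPM in OV and 6.69, 6.35 and 6.69 CPM in KD testes, against 7.27, 8.94 and 10.8 CPM in 5NC and 8.93, 9.98 and 9.91 CPM in 3NC testes. Its log2 fold change was -0.50 ± 0.12 (adjusted p = 0.489, edgeR). All 6 manipulated libraries were below the 3NC libraries, and 1 OV library lay just above the lowest 5NC library. Dock5 averaged 12.4 ± 2.16 CPM in OV and 11.9 ± 2.31 in KD, against 16.1 ± 1.70 in 5NC and 17.9 ± 3.03 in 3NC (SD, n = 3 each). Pja1 averaged 94.6 ± 6.29 CPM in OV and 94.9 ± 7.74 in KD, against 106 ± 4.07 in 5NC and 107 ± 0.230 in 3NC (SD, n = 3 each). These are small differences of much the same size in both manipulated groups, with log2 fold changes of -0.48 ± 0.12 for Dock5 and -0.17 ± 0.05 for Pja1.

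All 6 manipulated libraries lay on one side of all 6 control libraries for 14 genes (0.0858% of those tested), 4 higher and 10 lower, and none of the 14 was called. How many genes would separate in this way with the libraries relabelled was not tested, so the separation is given as a description. Of these, Ednrb, Cxcl14 and Synj2 come under the rule for named genes, and the others were chosen after their values were seen. Ednrb, an endothelin receptor, had 1.35, 0.689 and 1.12 CPM in OV and 0.956, 0.907 and 0.638 CPM in KD testes, against 1.89, 1.38 and 1.41 CPM in 5NC and 2.06, 3.23 and 2.17 CPM in 3NC testes. Its log2 fold change was -1.07 ± 0.22 (adjusted p = 0.308, edgeR), and the highest manipulated library was just below the lowest control. These libraries, OV replicate 1 and 5NC replicate 2, each held 21 reads of Ednrb, so they differ by scaling alone. Lynx1 had 6.15, 5.26 and 5.43 CPM in OV and 4.33, 5.89 and 5.67 CPM in KD testes, against 8.67, 6.38 and 7.11 CPM in 5NC and 7.45, 7.67 and 7.29 CPM in 3NC testes (-0.45 ± 0.11, adjusted p = 0.609, edgeR). Cad had 22.1, 22.1 and 21.2 CPM in OV and 19.6, 22.2 and 20.1 CPM in KD testes, against 26.8, 22.7 and 26.8 CPM in 5NC and 23.6, 25.9 and 27.7 CPM in 3NC testes (-0.27 ± 0.07). For Lynx1 and Cad the 2 control means were nearly equal, in contrast to the 5 called genes. The other genes with all manipulated libraries lower were Spred2, an inhibitor of Ras signalling, Fam160a1, Cacng4, the immediate early gene Ier5, Tnip2 and Nkiras1, both inhibitors of NF-kappaB signalling, and the core splicing factor Prpf8. Their log2 fold changes ran from -0.71 for Cacng4 to -0.08 for Prpf8. Cacng4 was near the floor, with a mean of 0.62 CPM over the 12 libraries. Its highest manipulated library had 0.574 CPM and its lowest control 0.641 CPM.

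On the higher side, Cxcl14, a chemokine, had 3.14, 0.940 and 1.31 CPM in OV and 1.40, 1.36 and 1.08 CPM in KD testes, against 0.550, 0.592 and 0.705 CPM in 5NC and 0.450, 0.852 and 0.788 CPM in 3NC testes. OV replicate 1 had more than any other library, and the log2 fold change was 1.20 ± 0.30 (adjusted p = 0.591, edgeR). The lowest manipulated library, OV replicate 2, held 15 reads of Cxcl14, and the highest control, 3NC replicate 2, held 14. Synj2, a phosphatase of inositol lipids that acts in vesicle traffic, had 90.8, 92.5 and 79.1 CPM in OV and 86.7, 81.7 and 80.7 CPM in KD testes, against 74.6, 74.4 and 72.1 CPM in 5NC and 75.1, 74.5 and 78.5 CPM in 3NC testes. The difference was small next to its level (0.19 ± 0.05), and the highest control library was just under the lowest OV library. The others were Tnfrsf19, a receptor of the TNF family, at 0.65 ± 0.19, and Gnal, a G protein subunit, at 0.23 ± 0.11.

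A looser condition, both manipulated means on the same side of both control means, was met by 1458 genes on the higher side (8.93%) and 1775 on the lower side (10.9%). Of the genes meeting it with a mean of at least 1 CPM, the 12 lower ones of smallest p included Sema4b, Mrap, Ednrb, Hmga1, Fdx1, Syt12, Cx3cl1, F3, Acyp2, Hsd17b7 and Tagln. Apart from Sema4b none of the 12 was called. Mrap, the accessory protein of the ACTH receptor, had 3.01, 3.82 and 5.43 CPM in OV and 3.57, 7.06 and 3.57 CPM in KD testes, against 6.66, 5.72 and 4.55 CPM in 5NC and 14.6, 14.2 and 14.0 CPM in 3NC testes (-1.03 ± 0.18, adjusted p = 0.150, edgeR). Hmga1, a chromatin protein with related sequences elsewhere in the genome, had its high group in 5NC instead. It had 46.5, 36.9 and 43.6 CPM in OV and 39.8, 44.6 and 31.6 CPM in KD testes, against 62.5, 58.8 and 79.6 CPM in 5NC and 41.1, 51.6 and 59.6 CPM in 3NC testes (-0.53 ± 0.11). Cx3cl1, a chemokine, and F3, tissue factor of blood clotting, were again highest in 3NC, at 6.56 to 10.2 CPM and 6.43 to 9.92 CPM, while their OV and KD libraries overlapped those of 5NC. The smooth muscle gene Tagln averaged 8.80 ± 1.98 CPM in OV and 11.1 ± 1.73 in KD, against 11.97 ± 1.31 in 5NC and 15.9 ± 1.34 in 3NC (SD, n = 3 each).

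The 12 higher genes of smallest p under the same condition were Cnbd2, A530064D06Rik, Phyhip, Cxcl14, LOC100862043, Gm3045, Zbtb46, LOC100041593, Gm40498, Gm14685, Synj2 and Gm41885, none of them called. Cnbd2, which is needed for male fertility in mice, had 165, 139 and 135 CPM in OV and 158, 176 and 169 CPM in KD testes, against 113, 124 and 128.5 CPM in 5NC and 139.8, 132 and 142 CPM in 3NC testes. Its log2 fold changes were nearly equal in OV against 5NC (0.26) and KD against 3NC (0.28), with 0.27 ± 0.06 over the 4 groups (adjusted p = 0.411, edgeR), and OV overlapped 3NC. Phyhip had 15.1, 11.97 and 6.99 CPM in OV and 6.37, 7.64 and 6.89 CPM in KD testes, against 1.04, 3.09 and 1.60 CPM in 5NC and 8.80, 2.56 and 4.53 CPM in 3NC testes. The 5NC mean was lowest, 5NC and 3NC overlapped, and 1 3NC library was above 4 of the 6 manipulated ones (1.49 ± 0.33, adjusted p = 0.489, edgeR). Zbtb46, a zinc finger transcription factor known from dendritic cells, had 11.7 to 15.1 CPM in the 6 manipulated libraries, against 10.1 to 12.2 CPM in the 6 control libraries (0.33 ± 0.09). Gm40498 had 20.8, 5.64 and 4.12 CPM in OV and 17.3, 11.01 and 15.9 CPM in KD testes, against 2.93, 3.55 and 4.68 CPM in 5NC and 3.53, 4.08 and 5.58 CPM in 3NC testes. In OV its mean rested on replicate 1, and OV replicates 2 and 3 lay within or close to the range of the controls.

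Cholesterol synthesis was the gene list with most members past the unadjusted threshold. Of its 22 tested members, all 22 had negative log2 fold changes over the 4 groups, with a median of -0.26, beside 8056 negative of 16320 and a median of 0.0012 for all genes tested. Insig1 was called, beside 0.0306% of all genes called. In all, 16 members, Insig1 among them, had an unadjusted p under 0.05, all lower, beside 2.23% of all genes. The median was -0.20 in OV against 5NC and -0.37 in KD against 3NC. With the controls crossed it was -0.48 in OV against 3NC and 0.01 in KD against 5NC. In the pairs, 2 members were called lower in KD against 3NC (beside 0.178% of all genes called) and 6 lower in OV against 3NC (beside 0.319%). Both manipulated means were below both control means for 9 of the 22, beside 10.9% of all genes tested. The direction was kept by 21 or 22 members whichever single library was left out, but with 3NC left out the median was -0.13, 17 members were negative and 2 had an unadjusted p under 0.05. With 5NC left out it was -0.44.

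The members covered the path from acetyl-CoA to cholesterol. Early in it, the SREBP target Hmgcs1 had 114, 99.97 and 146 CPM in OV and 115, 144 and 134 CPM in KD testes, against 115, 108 and 124 CPM in 5NC and 198, 228 and 162 CPM in 3NC testes. OV and KD overlapped 5NC and lay below every 3NC library. Lss, which closes the sterol ring, had 19.9, 22.0 and 25.8 CPM in OV and 26.7, 33.2 and 27.4 CPM in KD testes, against 27.2, 25.0 and 26.8 CPM in 5NC and 36.2, 48.1 and 43.5 CPM in 3NC testes (-0.39 ± 0.09).

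Among later steps, Hsd17b7 had 7.37, 5.64 and 9.05 CPM in OV and 6.18, 10.2 and 9.31 CPM in KD testes, against 9.65, 8.28 and 9.54 CPM in 5NC and 13.9, 17.2 and 14.6 CPM in 3NC testes (-0.57 ± 0.14, adjusted p = 0.489, edgeR). Dhcr7, which makes the last step, differed in another way, with 16.5, 16.2 and 15.7 CPM in OV and 20.1, 35.6 and 27.5 CPM in KD testes, against 37.7, 19.7 and 27.3 CPM in 5NC and 26.7, 31.9 and 28.2 CPM in 3NC testes. Its OV libraries were below all others, while KD lay within the range of the controls. The regulator Srebf2, the gene of SREBP2, had 24.6 to 31.3 CPM in OV and 35.0 to 35.7 CPM in KD testes, against 32.1 to 38.2 CPM in 5NC and 31.8 to 41.1 CPM in 3NC testes (-0.18 ± 0.08). Fdft1, which commits the path to sterols, differed least (-0.01 ± 0.05).

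Promoters of 16 of the 22 genes were held in the RefSeq table (GRCm38.p6), each 250 bases before to 50 bases after the start. CCAAT, searched on both strands, was found in 16 of the 16, beside 41.1% of all 27025 genes with a promoter in the table and 42.8% of the 12905 tested genes with one. CCAAT is the motif of the factor NF-Y, which is known to act beside SREBP. One form of the sterol regulatory element, searched as TCACNCCAC on both strands, was found in 1 of the 16, Hmgcs1, beside 1.44% of all genes with a promoter. In the Leydig cell list CCAAT was found in 7 of 16 promoters. These matches are descriptions of the sequence and do not show binding. Hmgcs1, with 4 CCAAT motifs and the sterol element, Hsd17b7, with 3, and the called gene Insig1, with 1, are shown 5′ to 3′ on the strand of the gene, since they show the shared motif. Capitals mark CCAAT, its reverse complement ATTGG or the sterol element TCACCCCAC; the regions are chr13:119690101-119690400 on the plus strand, chr1:169969156-169969455 on the minus strand and chr5:28071162-28071461 on the plus strand.
Hmgcs1: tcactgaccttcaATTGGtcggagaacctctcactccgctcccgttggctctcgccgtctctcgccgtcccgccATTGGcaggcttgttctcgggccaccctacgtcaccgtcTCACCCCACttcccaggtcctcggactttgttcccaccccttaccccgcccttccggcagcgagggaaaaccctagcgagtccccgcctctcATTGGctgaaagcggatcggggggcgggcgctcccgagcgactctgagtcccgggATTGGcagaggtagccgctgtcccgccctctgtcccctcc
Hsd17b7: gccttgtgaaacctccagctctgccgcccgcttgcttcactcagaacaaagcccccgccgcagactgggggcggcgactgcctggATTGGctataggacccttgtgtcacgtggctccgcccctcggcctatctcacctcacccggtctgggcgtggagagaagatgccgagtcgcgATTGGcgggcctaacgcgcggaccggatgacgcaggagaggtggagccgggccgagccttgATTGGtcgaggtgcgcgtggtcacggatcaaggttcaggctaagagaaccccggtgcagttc
Insig1: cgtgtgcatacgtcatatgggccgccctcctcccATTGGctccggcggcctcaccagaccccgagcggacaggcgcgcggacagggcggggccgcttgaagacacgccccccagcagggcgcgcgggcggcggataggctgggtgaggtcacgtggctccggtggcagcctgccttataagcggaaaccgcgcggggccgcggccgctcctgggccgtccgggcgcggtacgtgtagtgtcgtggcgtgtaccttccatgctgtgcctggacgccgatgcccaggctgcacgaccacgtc

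Genes of Leydig cells and steroid synthesis were lower on average in both manipulated groups and against both controls. None was called over the 4 groups, and 2 were called in OV against 3NC, both lower (beside 0.319% of all genes called). Of 22 tested members, all 22 had negative log2 fold changes over the 4 groups, with a median of -0.35 beside 0.0012 for all genes, and 6 had an unadjusted p under 0.05, beside 2.23% of all genes lower at that threshold. The median was -0.38 in OV against 5NC, -0.31 in KD against 3NC, -0.34 in OV against 3NC and -0.21 in KD against 5NC. Both manipulated means were below both control means for 17 of the 22, beside 10.9% of all genes tested. In this list, unlike cholesterol synthesis, the median stayed close to its value with 3NC left out, at -0.32 with 22 members negative, and with 5NC left out, at -0.45 with 19 negative. Leaving out single libraries gave medians of -0.48 to -0.26 with 21 or 22 members negative, and leaving out the 3 libraries that stood apart gave -0.36 with 22 negative. In bulk tissue, fewer cells of a type and less RNA per cell cannot be told apart.

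The libraries themselves overlapped. The mean of the members' centred log2 levels was -0.72, -0.26 and 0.10 in OV and -0.33, 0.24 and -0.33 in KD testes, against 0.51, 0.04 and 0.22 in 5NC and -0.08, 0.31 and 0.30 in 3NC testes. Of the 6 manipulated libraries 4 were below every control library, while OV replicate 3 and KD replicate 2 lay among the controls. Members of this list vary together from library to library, so their shared sign is not 22 separate observations. The summed level of the list was 1621 to 2647 CPM in OV and 1950 to 2935 CPM in KD testes, against 2328 to 3730 CPM in 5NC and 2473 to 2928 CPM in 3NC testes.

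Fdx1, the ferredoxin that passes electrons to the mitochondrial steroid enzymes, had 30.1, 32.3 and 39.1 CPM in OV and 34.0, 40.7 and 34.2 CPM in KD testes, against 42.2, 37.9 and 37.0 CPM in 5NC and 52.3, 65.0 and 48.3 CPM in 3NC testes (-0.41 ± 0.09, adjusted p = 0.429, edgeR). Star had 84.9, 127 and 232 CPM in OV and 140.3, 210.3 and 170.4 CPM in KD testes, against 207, 191 and 171 CPM in 5NC and 235, 389 and 274 CPM in 3NC testes (-0.57 ± 0.24). Cyp11a1, which cuts the side chain of cholesterol, had 91.6, 108 and 158 CPM in OV and 95.7, 185 and 169 CPM in KD testes, against 184, 137 and 184 CPM in 5NC and 164, 213 and 224 CPM in 3NC testes (-0.46 ± 0.19). All 3 genes were lowest in OV replicate 1. For Fdx1 and Star the 3NC libraries were above all the others and OV, KD and 5NC overlapped, while for Cyp11a1 the 3NC libraries overlapped those of KD and 5NC.

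Further along the path, Cyp17a1, which makes androgens, had 230.1, 356 and 709.9 CPM in OV and 432, 722 and 518 CPM in KD testes, against 814, 479 and 689.6 CPM in 5NC and 577, 789 and 749.9 CPM in 3NC testes (-0.48 ± 0.28). Lhcgr, the receptor for luteinizing hormone, had 6.47, 9.34 and 15.1 CPM in OV and 11.5, 24.3 and 16.1 CPM in KD testes, against 18.3, 13.3 and 23.4 CPM in 5NC and 14.6, 23.1 and 16.7 CPM in 3NC testes (-0.45 ± 0.25). Neither passed an unadjusted p of 0.05, and the spread within OV was wide for both. Insl3, a peptide hormone of mature Leydig cells, had 690.3, 691 and 694 CPM in OV and 626, 899.5 and 696 CPM in KD testes, against 1538, 755 and 825 CPM in 5NC and 759, 654 and 757 CPM in 3NC testes, and 5NC replicate 1 stood above all others. Nr5a1, a transcription factor of steroidogenic cells, had 0.18 in KD against 3NC and -0.46 in OV against 5NC on the log2 scale, so its 2 comparisons had opposite signs. Akr1b7 had the most negative fold change of the list (-3.29 ± 1.39), and it rested on 5NC, at 11.1, 80.1 and 0.961 CPM, while all libraries of the other 3 groups were at 1.03 CPM or less. Akr1b7 is also known from the vas deferens, and Crisp1, a gene of the epididymis, stood high in the same control group, with 0.320, 9.21 and 0.187 CPM in OV and 0.319, 7.06 and 0 CPM in KD testes, against 9.95, 93.3 and 90.0 CPM in 5NC and 0.321, 1.22 and 5.91 CPM in 3NC testes. The list of epididymis and fat markers, of which 10 of 16 were tested, had 8 negative fold changes, a median of -0.17 and a summed level of 178 to 202 CPM in OV and 191 to 196 CPM in KD testes, against 161 to 352 CPM in 5NC and 169.8 to 217 CPM in 3NC testes. Its median was -0.67 in OV against 5NC and 0.30 in KD against 3NC, and its part in the Leydig cell values was not tested. Klk1b21, Klk1b24 and Klk1b27 are near-identical kallikrein genes and their counts are uncertain.

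**Figure D3:**
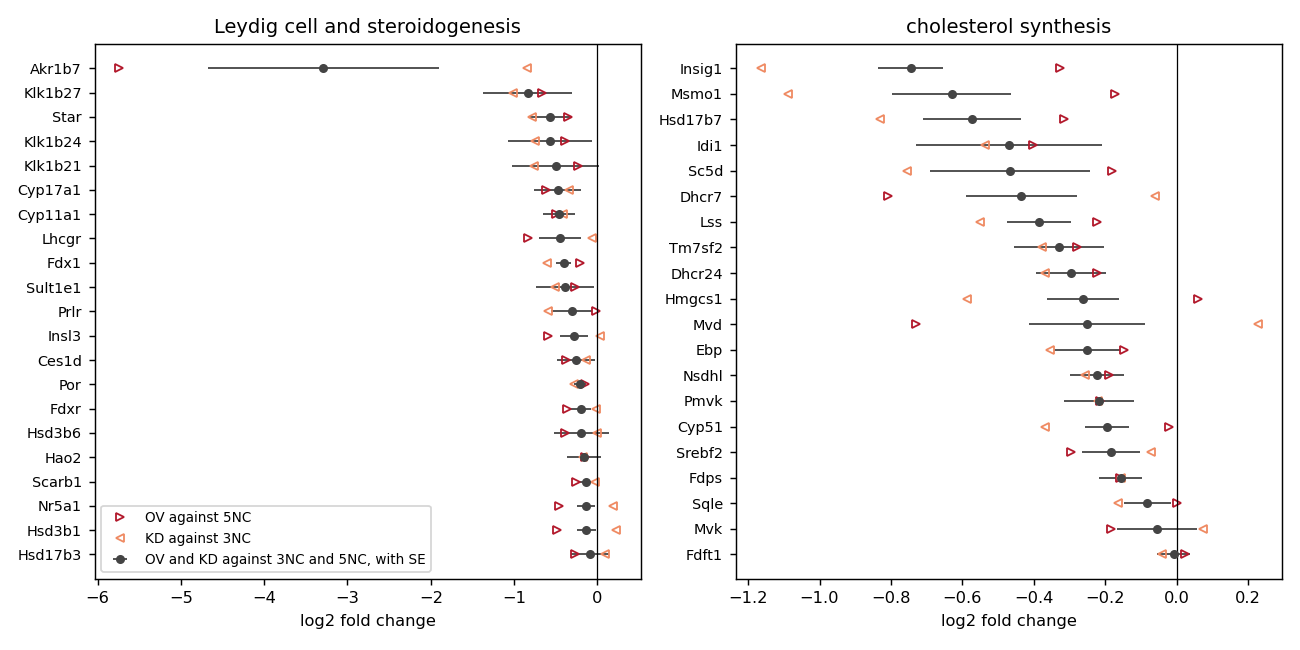
Log2 fold changes of 21 tested members of the Leydig cell list (left) and 20 of the cholesterol synthesis list (right), for OV and KD against 3NC and 5NC with its SE (dots and bars), OV against 5NC and KD against 3NC (triangles). All dots are below 0, most Leydig cell members are negative in both, and Insig1 and Msmo1 have their larger change in KD against 3NC.

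Lists of immune genes had medians of opposite sign in the 2 manipulated groups, which the equal weighting averaged. All 21 antigen presentation genes had positive log2 fold changes over the 4 groups, with a median of 0.45, and 4 were higher at an unadjusted p under 0.05, beside 1.65% of all genes. The median was 1.38 in OV against 5NC and -0.46 in KD against 3NC, and 5 of the 21 were positive in both. With OV left out it was -0.43 and 18 members were negative. The mean of the members' centred log2 levels was -0.63, -0.56 and -0.485 in KD testes. It was -0.006, 0.12 and -0.60 in 5NC and -0.73, 0.33 and -0.60 in 3NC testes. KD thus lay close to 3NC replicates 1 and 3, and 3NC replicate 2, which stood apart on the first principal component, was higher. H2-D1, a class I molecule, had 204.5, 155 and 165 CPM in OV and 46.3, 75.3 and 78.0 CPM in KD testes, against 74.0, 45.7 and 47.3 CPM in 5NC and 69.9, 100.1 and 61.5 CPM in 3NC testes. The OV libraries were above all others and the KD libraries lay among the controls. H2-DMb1, which helps load peptides on class II molecules, had both manipulated means above both control means (0.82 ± 0.30), with its high values in OV at 5.83, 4.89 and 2.25 CPM. The interferon response list had 22 of 35 members positive, a median of 0.11, and medians of 1.05 in OV against 5NC and -0.72 in KD against 3NC. Its mean centred level was -0.83, -0.645 and -0.60 in KD, against -0.65, 0.55 and -0.42 in 3NC testes, with replicate 2 again the highest. Macrophage markers had 16 of 20 positive, with a median of 0.26 (0.62 in OV against 5NC and -0.12 in KD against 3NC), and their summed level was 573 to 759 CPM in OV and 487 to 527 CPM in KD testes, against 515 to 541 CPM in 5NC and 480.5 to 580.2 CPM in 3NC testes. Their mean centred level was 1.02, 0.225 and 0.085 in OV, against -0.264 to 0.33 in 5NC and -0.333 to 0.169 in 3NC testes. OV replicate 1 was thus above every control library, while OV replicates 2 and 3 lay within the range of the controls. The part of macrophages in the antigen presentation values was not tested.

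The mean level of immediate early genes, which respond within minutes to many stimuli, separated the groups along the pairs and not by manipulation. Single members did not all follow this mean. Of 38 tested, 22 were negative over the 4 groups with a median of -0.05, and 11 were lower at an unadjusted p under 0.05 (beside 2.23% of all genes) and 1 higher (beside 1.65%). The mean of the centred log2 levels was -0.23, -0.41 and -0.60 in OV and 0.29, 0.31 and 0.18 in KD testes, against -0.18, -0.41 and -0.40 in 5NC and 0.49, 0.45 and 0.49 in 3NC testes. OV and 5NC were low, and KD and 3NC were high, with no overlap between these pairs of groups. The median was -0.11 in OV against 5NC and -0.01 in KD against 3NC, but -0.57 in OV against 3NC and 0.31 in KD against 5NC. In KD against 3NC, 5 members were higher and 12 lower at an unadjusted p under 0.05. Of all 16320 genes, 413 were higher and 566 lower there. None was called in OV against 5NC, 4 were called lower in KD against 3NC (beside 0.178% of all genes called), 16 lower in OV against 3NC (beside 0.319%) and 7 higher in KD against 5NC (beside 0.049%). Ier3, an early gene of cell survival, had 1.86, 1.19 and 0.749 CPM in OV and 2.42, 2.01 and 2.17 CPM in KD testes, against 2.08, 1.25 and 1.35 CPM in 5NC and 6.36, 8.77 and 8.20 CPM in 3NC testes (-1.06 ± 0.20, adjusted p = 0.252, edgeR). Nr4a3, an orphan nuclear receptor, had 1.69 to 4.17 CPM in OV and 2.85 to 3.70 CPM in KD testes, against 2.56 to 3.18 CPM in 5NC and 9.57 to 14.5 CPM in 3NC testes. For Ier3 and Nr4a3, unlike the mean of the list, KD overlapped 5NC and 3NC alone stood above the other groups. With 3NC left out, both had positive fold changes, 0.094 for Ier3 and 0.072 for Nr4a3.

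**Figure D4:**
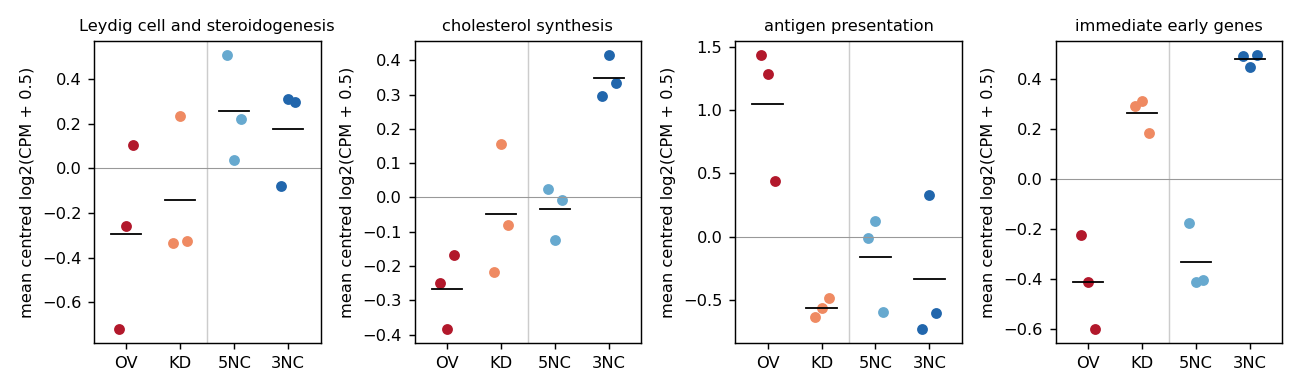
Mean of the members' log2(CPM + 0.5), each centred on its mean over the 12 libraries, for 4 lists (points: libraries; line: mean of 3; the grey vertical line parts manipulated from control groups). Leydig cell genes are lower on average in OV and KD with overlapping libraries, cholesterol synthesis genes are highest in 3NC, antigen presentation genes are high in OV, and immediate early genes are high in KD and 3NC.

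Other genes highest in 3NC came from several lists. Itga5, an integrin that binds fibronectin, had 2.19 to 4.10 CPM in OV and 1.62 to 2.42 CPM in KD testes, against 1.79 to 3.97 CPM in 5NC and 7.91 to 9.19 CPM in 3NC testes (-0.99 ± 0.20, adjusted p = 0.308, edgeR). Ccl7, a chemokine for monocytes, had 0.897, 0.564 and 0.687 CPM in OV and 0.191, 0.0648 and 0.191 CPM in KD testes, against 0.366, 0.460 and 0.128 CPM in 5NC and 2.96, 4.38 and 1.97 CPM in 3NC testes. Bhlhe40 and Nfil3 of the clock and Hmox1, the heme oxygenase, had fold changes of -0.51, -0.28 and -0.42 that were 0.079, 0.021 and 0.087 with 3NC left out. Txnip, an inhibitor of thioredoxin, went the other way and was lowest in 3NC, with 105 to 113 CPM in OV and 84.2 to 103 CPM in KD testes, against 85.6 to 136 CPM in 5NC and 44.9 to 58.4 CPM in 3NC testes (0.43 ± 0.10). None of these genes was called over the 4 groups.

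Germ cell lists had small median differences. Elongating spermatid genes had 24 of 25 members positive with a median of 0.05, and round spermatid genes 19 of 25 with a median of 0.04, and no member of either had an unadjusted p under 0.05. The elongating spermatid median was -0.02 in OV against 5NC and 0.12 in KD against 3NC. Undifferentiated spermatogonia genes had 12 of 17 members negative with a median of -0.12. Their median was -0.08 in OV against 5NC and -0.02 in KD against 3NC. Differentiating spermatogonia genes had 10 of 12 negative with a median of -0.05. No member of these lists had an unadjusted p under 0.05 over the 4 groups. The piRNA pathway and small RNA machinery lists had medians of 0.02 and -0.01 with no member past the unadjusted threshold. Among meiotic genes, Spo11, the enzyme that makes the DNA breaks of recombination, had 29.1, 40.6 and 37.6 CPM in OV and 31.5, 40.9 and 34.6 CPM in KD testes, against 38.3, 44.2 and 45.0 CPM in 5NC and 48.7, 45.4 and 49.2 CPM in 3NC testes (-0.33 ± 0.09, adjusted p = 0.664, edgeR). OV and KD overlapped 5NC and were below every 3NC library. Mei1, needed for the same step, had -0.28 ± 0.10, with 3.72 to 3.93 CPM in OV testes as its lowest group.

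Among somatic lists, Sertoli cell markers had 20 of 28 members negative with a median of -0.06, and 4 were lower at an unadjusted p under 0.05, beside 2.23% of all genes. Their median was -0.22 in OV against 5NC and 0.13 in KD against 3NC. Kitl, the ligand of the KIT receptor of spermatogonia, had 21.8 to 22.0 CPM in OV and 15.1 to 18.7 CPM in KD testes, against 18.7 to 19.6 CPM in 5NC and 26.5 to 43.8 CPM in 3NC testes, so OV lay above 5NC and below 3NC. Endothelial markers had 10 of 18 members positive and 8 negative. At an unadjusted p under 0.05, 3 members were higher, beside 1.65% of all genes, among them Tek, the angiopoietin receptor. Tek had 4.29, 5.58 and 5.81 CPM in OV and 4.78, 5.18 and 5.80 CPM in KD testes, against 4.21, 4.27 and 4.48 CPM in 5NC and 4.11, 3.77 and 3.94 CPM in 3NC testes (0.34 ± 0.11). Eng, a coreceptor of the TGF-beta family, had 0.43 ± 0.13. The list median was 0.02, and -0.12 in OV against 5NC, with 12 members negative, and 0.20 in KD against 3NC, with 16 positive. Ribosomal protein genes had 30 of 36 members negative with a median of -0.04, which was -0.18 in OV against 5NC and 0.08 in KD against 3NC. Most lists outside Leydig cells and cholesterol synthesis thus had medians near 0 or of opposite sign in these 2 comparisons.

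**Figure D5:**
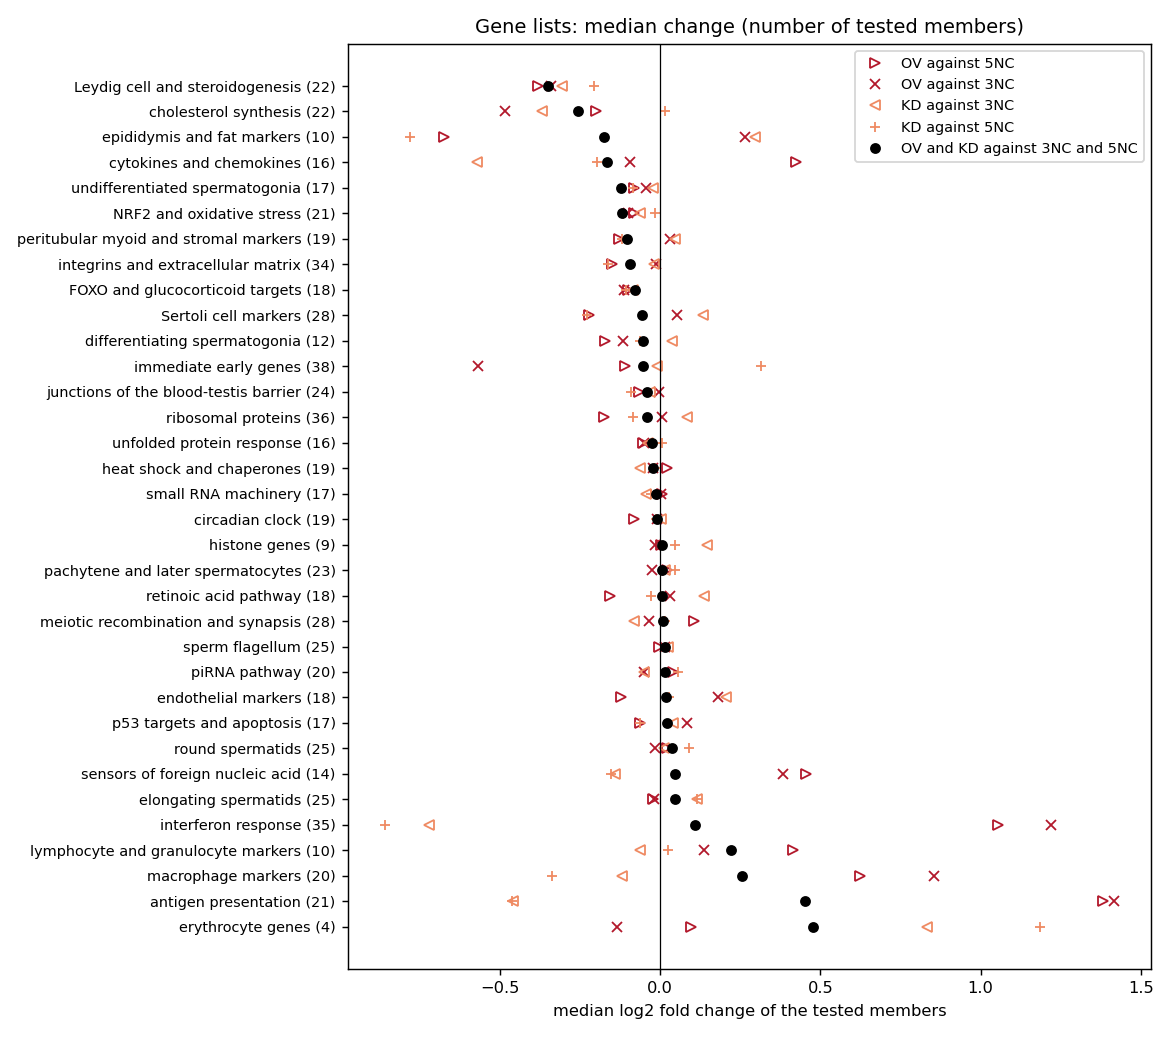
Median log2 fold change of the tested members of 34 gene lists (number of members in brackets), over the 4 groups (dots) and in each pair of a manipulated and a control group. The Leydig cell list is below 0 in all 4 pairs, as are, nearer to 0, the lists of FOXO and glucocorticoid targets, NRF2, integrins, junctions and undifferentiated spermatogonia, cholesterol synthesis is in 3 of 4, and the interferon and antigen presentation lists are positive in OV and negative in KD.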

How the data were processed

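RNA-seq of testis was compared over 12 libraries, 3 each of OV, KD, 5NC and 3NC, grouped by the labels. The members, the gene lists and the tests were chosen with earlier results of these data known. The authors deposited values headed as read counts, which were taken here to be expected counts without normalisation, since 87.986% were whole to within 1e-06 and library totals differed. All were rounded before the tests. A second set of deposited values was taken to be FPKM, a unit inferred here: over 5204 genes with more than 500 reads, the value of 1 read times the library total had a mean CV of 0.835% between libraries. The build was mm10, per the submitters' processing notes. No source used here gives the aligner, counting program, annotation or strandedness, so reads of overlapping or antisense genes cannot be told apart. Of 20718 genes, 20564 (99.257%) matched the RefSeq table by identifier, and 18 per-sample columns of other samples were not used here.

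All groups were fitted together with edgeR 4.0.16 in R 4.3.3 (robust quasi-likelihood, TMM, filterByExpr at 10 counts and 15 in total, no covariates), which left 16320 genes with 8 residual degrees of freedom and a biological coefficient of variation of 0.13. The main contrast was the mean of the OV and KD coefficients minus the mean of those of 3NC and 5NC. The same fit gave OV against 5NC, KD against 3NC, both crossed pairs, and the OV effect minus the KD effect. A same-direction rule took the larger of both p-values of a gene where the signs matched. The threshold for a call was 0.05 on the Benjamini-Hochberg adjusted p. SE was obtained by dividing the absolute log2 fold change by the square root of F and is approximate at few reads. CPM uses TMM library sizes, 3 reads correspond to 0.183 to 0.194 CPM per library, and intervals from such floors cover counting error only.

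Named genes were, per direction, the 12 genes of smallest p with a mean of at least 1 CPM and both manipulated means on one side of both control means, up to 3 called genes without that order, and up to 2 members per list at an unadjusted p under 0.05. Some genes that the last part takes are given by count alone. Of 34 lists, each is described by counts and medians. The values of 2 list members are not reported here; the counts and medians include them.

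Pairing by replicate number was examined through the correlation of deviations from group means. It was 0.16, 0.15 and 0.11 for OV with 5NC, 0.01, 0.03 and 0.06 for KD with 3NC, and -0.18 to 0.04 for the other pairs of groups, so the numbers met the condition for pairing (every correlation over 0.1) in OV and 5NC and not over the 4 groups. Alternatives were other normalisation, filters and tests (DESeq2 1.42.0, limma 3.58.1), log2(FPKM + 0.1) and log2(FPKM + 1), replicate blocks, a fit of 2 groups of 6, and leaving out single libraries. Leaving out a group, or the 3 libraries that stood apart, was chosen after seeing the data. Procedures were tested on simulated data in which OV and KD shifted alike and 3NC and 5NC did not differ. That setting does not cover genes set apart by 3NC alone, as the called genes were.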

Additional observations from a re-analysis of the deposited data

Results flagged for a closer look

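For 4 of the named genes the effects in OV and in KD differed by a test of the difference itself, the effect of OV against 5NC minus the effect of KD against 3NC. This test called 10 of 16320 genes (0.0613%, edgeR, adjusted p under 0.05). Sema4b had a difference of 1.39 ± 0.22 on the log2 scale (adjusted p = 0.0339, edgeR), with -0.10 in OV against 5NC and -1.49 in KD against 3NC. Medag had a difference of 3.35 ± 0.37 (adjusted p = 0.00452, edgeR), with 0.39 in OV against 5NC and -2.96 in KD against 3NC. Trib1 had a difference of 1.47 ± 0.23 (adjusted p = 0.0339, edgeR), with -0.05 in OV against 5NC and -1.52 in KD against 3NC. Ccl7 had a difference of 5.46, with 1.15 in OV against 5NC and -4.31 in KD against 3NC, at counts under 5 CPM in every library. In all 4 genes the 3NC libraries were above all the others, so each difference moves with the level of 1 control group.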

How the results depend on the processing

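The 5 calls over the 4 groups were 5 with DESeq2 size factors, without a filter, with a filter of 1 CPM and, though not all the same genes, with log2(FPKM + 1). They were 22 with the DESeq2 test, 2 with voom, 1 with log2(FPKM + 0.1), 8 with the replicate block within arms, 6 with the replicate block over all groups, 0 with 2 groups of 6, 1 with 3NC left out, 61 with 5NC left out, 3 with KD left out, 3 with OV left out, and 3 without the libraries that stood apart. The DESeq2 test called 50 genes in OV against 5NC, 71 in KD against 3NC, 108 in OV against 3NC, 35 in KD against 5NC and 96 for the difference of the effects. With log2(FPKM + 0.1) these were 12 in KD against 3NC, 26 in OV against 3NC, 4 in KD against 5NC and 4 for the difference. The replicate block within arms gave 26 in OV against 5NC, 61 in KD against 3NC and 61 for the difference, and gives no value for the crossed pairs. The replicate block over all groups gave 29 in OV against 3NC. Without the libraries that stood apart there were 10 in OV against 5NC, 14 in KD against 5NC and 4 for the difference. Leaving out single libraries gave 0 to 8 calls over the 4 groups, 0 to 5 in OV against 5NC, 10 to 34 in KD against 3NC, 27 to 81 in OV against 3NC, 4 to 11 in KD against 5NC and 4 to 23 for the difference. Both same-direction rules gave 0 in each. Against 29 calls in KD against 3NC, 52 in OV against 3NC, 8 in KD against 5NC and 10 for the difference, the cause of these shifts was not tested.

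The genes followed, 71 in all, kept their sign in each alternative that does not leave out a group, apart from Cacng4, which has no value with the filter of 1 CPM. They were chosen from these same libraries for small p-values or for libraries that did not overlap. A kept sign was therefore likely beforehand and is no separate support. With 3NC left out, 12 reversed: Medag 0.26, Trib1 0.046, Ier3 0.094, Nr4a3 0.072, Ccl7 0.050, Txnip -0.090, Bhlhe40 0.079, Kitl 0.024, Hmox1 0.087, Pdk4 0.014, Nfil3 0.021 and Atf4 0.024. With 5NC left out Spink8 reversed to 0.77, and with OV left out Itgal to -0.19. Values near the floor of 3 reads are limited by depth.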
